A study of Mus musculus with 4 samples.

Results

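The genes described here are 37 genes of the cell division cycle, 18 that act in DNA replication and 19 that act in mitosis, of 55536 mouse genes in the tables. They were chosen by symbol for what their products do, with no rule on levels, and each symbol matched 1 gene. RNA was sequenced from T cells of the spleen, described in the labels by the antigen CD3, of virgin male B6CASTF1/J mice aged 66 days. In this F1 cross the mother is C57BL/6 and the father CAST/EiJ. All samples form 1 group with no treatment and no second condition, of 4 biological replicates called libraries 1 to 4 here, each from 300 ng of total RNA with synthetic spike-in RNAs. The labels give the 4 samples 1 donor identifier and do not say whether each is a separate animal, so SDs and p-values concern the spread between these samples, which may be technical. Because there is no second group, genes are compared with each other within a library, and each gene between libraries.

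A cell that divides first licenses its replication origins, where CDC6 and CDT1 load the ring-shaped MCM2-7 helicase, then copies its DNA in S phase with the PCNA clamp and a supply of nucleotides, and finally separates the chromosomes under the mitotic kinases. E2F factors with their RB-family partners regulate many replication genes, and the DREAM complex and FOXM1 regulate many mitotic genes, the former through a promoter element called CHR (cell cycle genes homology region). Most T cells of a spleen without infection are resting, and they enter the cycle after contact with antigen.

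E2F letters were found mainly in promoters of replication genes, and CHR letters mainly in those of mitosis genes, with no test run on these counts. RefSeq windows of build GRCm38.p6, from 250 bases before to 50 bases after the annotated start, were available for 30 of the members, 15 of each kind. They were searched on both strands for E2F sites (TTTCCCGC, TTTGGCGC, TTTGCCGC or TTTCGCGC), for the CHR (TTTGAA or TTCGAA) and for CCAAT, the box bound by NF-Y. TTCGAA reads the same on both strands and was counted once, and no searched word contains another. E2F letters were found for 6 of 15 replication genes, namely Mcm3, Mcm5, Mcm6, Mcm7, Cdc6 and Cdt1, and for 1 of 15 mitosis genes, Cdk1. Member counts are per gene, and a gene can have more than 1 window. Over all 32851 windows 2.26% held such a site, and over all 27025 genes with a window 2.6% did. CHR letters were found for 12 of 15 mitosis genes and 2 of 15 replication genes, beside 19.2% of all windows and 21.7% of all genes. CCAAT was present for 14 of 15 mitosis genes, with Birc5 as the exception, and for 8 of 15 replication genes. It was present in 37.4% of all windows and for 41.1% of all genes. CHR and CCAAT were found together for 12 of 15 mitosis genes and 2 of 15 replication genes, beside 7.52% of all windows. A match is a run of letters and does not show that a factor binds there.

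The stretches below show where these letters lie before the start of 8 members. Capitals mark E2F matches in Mcm5 and Mcm6 and the CHR match of Mcm2, a replication gene. In Cdk1 they mark the E2F and then the CHR match, and in the other mitosis genes CHR matches. In Mcm5 and Mcm6 a pair of E2F matches on opposite strands overlaps, so that the first run of capitals is longer than 1 site. All are written 5′ to 3′ on the strand of the gene.
Mcm5, chr8:75109339-75109458, plus strand: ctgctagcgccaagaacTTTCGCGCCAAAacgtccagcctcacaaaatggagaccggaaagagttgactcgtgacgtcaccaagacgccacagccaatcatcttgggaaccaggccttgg
Mcm6, chr1:128359706-128359825, minus strand: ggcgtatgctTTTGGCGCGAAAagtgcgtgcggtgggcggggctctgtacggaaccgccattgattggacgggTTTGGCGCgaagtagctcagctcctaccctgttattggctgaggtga
Mcm2, chr6:88898781-88898900, minus strand: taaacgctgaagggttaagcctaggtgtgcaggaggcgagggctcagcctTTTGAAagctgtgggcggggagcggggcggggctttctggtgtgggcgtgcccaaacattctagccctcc
Cdk1, chr10:69352943-69353052, minus strand: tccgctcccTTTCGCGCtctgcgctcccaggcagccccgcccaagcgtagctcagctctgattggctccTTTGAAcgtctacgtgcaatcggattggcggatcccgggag
Top2a, chr11:99024190-99024339, minus strand: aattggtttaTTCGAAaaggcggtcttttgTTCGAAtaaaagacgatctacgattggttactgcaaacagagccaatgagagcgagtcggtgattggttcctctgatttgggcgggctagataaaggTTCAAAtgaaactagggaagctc
Mki67, chr7:135716430-135716509, minus strand: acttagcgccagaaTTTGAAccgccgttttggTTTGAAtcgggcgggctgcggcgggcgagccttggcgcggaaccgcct
Kif11, chr19:37376302-37376381, plus strand: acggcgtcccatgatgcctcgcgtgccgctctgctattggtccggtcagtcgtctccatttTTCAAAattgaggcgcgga
Cdc20, chr4:118437354-118437423, minus strand: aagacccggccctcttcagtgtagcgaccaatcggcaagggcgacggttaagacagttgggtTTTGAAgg

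The Mcm5 pair begins 153 and 149 bases before the start, and the Mcm6 matches begin 110, 106 and 47 bases before it. Top2a holds 4 CHR matches, of which those 140, 120 and 23 bases before the start are printed, the last on the other strand. In Mki67 the CHR matches begin 116 and 98 bases before the start, in Kif11 19 bases and in Cdc20 18 bases before it. Cdk1 has a further CHR match 15 bases before its start, and its E2F and printed CHR matches begin 131 and 71 bases before it. Mcm7 and Cdc6 have E2F letters 165 and 138 bases before the RefSeq start, and those of Mcm3 and Cdt1 lie after it. The windows of Mcm7 and Cdc6 lie inside the gene models used for the levels, which begin at 138172422 and 98907801. These letters are thus not upstream of those models.

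**Figure D1:**
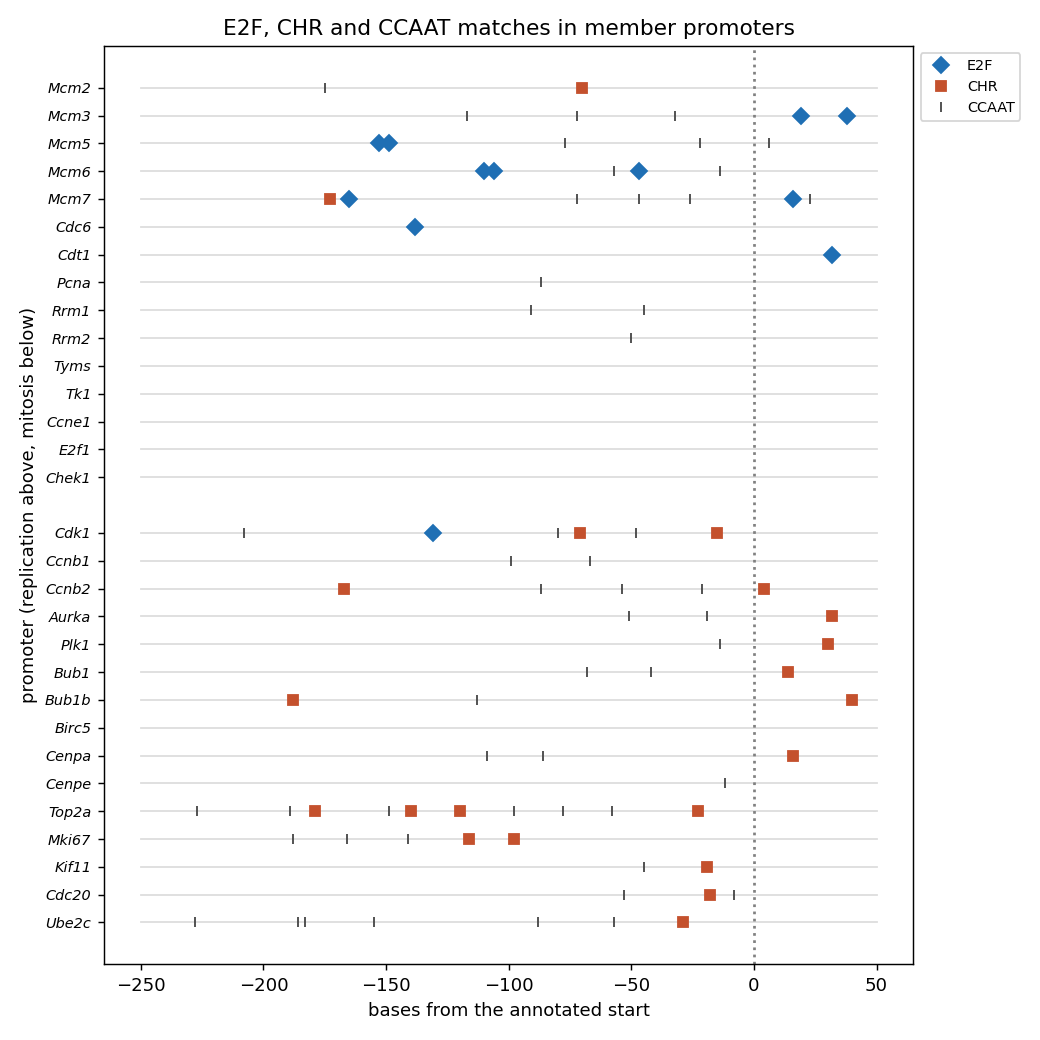
Positions of E2F, CHR and CCAAT matches (x axis, bases from the annotated start, negative before it) in the promoter windows of 30 members, replication genes above and mitosis genes below. E2F marks lie on 6 replication genes and on Cdk1, and CHR marks on 12 mitosis genes and on Mcm2 and Mcm7.

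Among the members, replication genes were the more abundant kind in every library, but they formed a high and a low set. Levels are given as TPM, the number of transcripts of a gene per 1000000 transcripts, which corrects for length. In a second deposited quantification of the same libraries the split was less clear. Tyms, in the low set here, had 15.3 TPM there, between Chek1 at 4.41 and Mcm3 at 21.7 TPM. Of 18 replication genes, 16 had at least 1 TPM in every library and 9 had at least 10 TPM. Of 19 mitosis genes, 7 had at least 1 TPM in every library and 1, Cenpa, had at least 10 TPM. With TPM rescaled to protein-coding genes these counts at 1 TPM were 17 of 18 and 18 of 19, so the contrast in counts depends on the scale. Among all 21951 protein-coding genes, 9736 (44.4%) had at least 1 TPM in every library. The median level was 10.04 TPM for replication genes, 1.21 TPM for mitosis genes and 0.480 TPM for all protein-coding genes. On the log2(TPM + 1) scale the replication mean exceeded the mitosis mean by 1.60, 1.51, 1.63 and 1.44 in libraries 1 to 4, or 1.54 ± 0.08 (SD, n = 4). In each library the replication list was the higher, with a spread between libraries far smaller than the difference. Without Pcna the difference was 1.35, and without Cenpa it was 1.75. In bulk RNA, fewer cells of a type, such as cells that divide, and less RNA in each of them cannot be told apart.

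**Figure D2:**
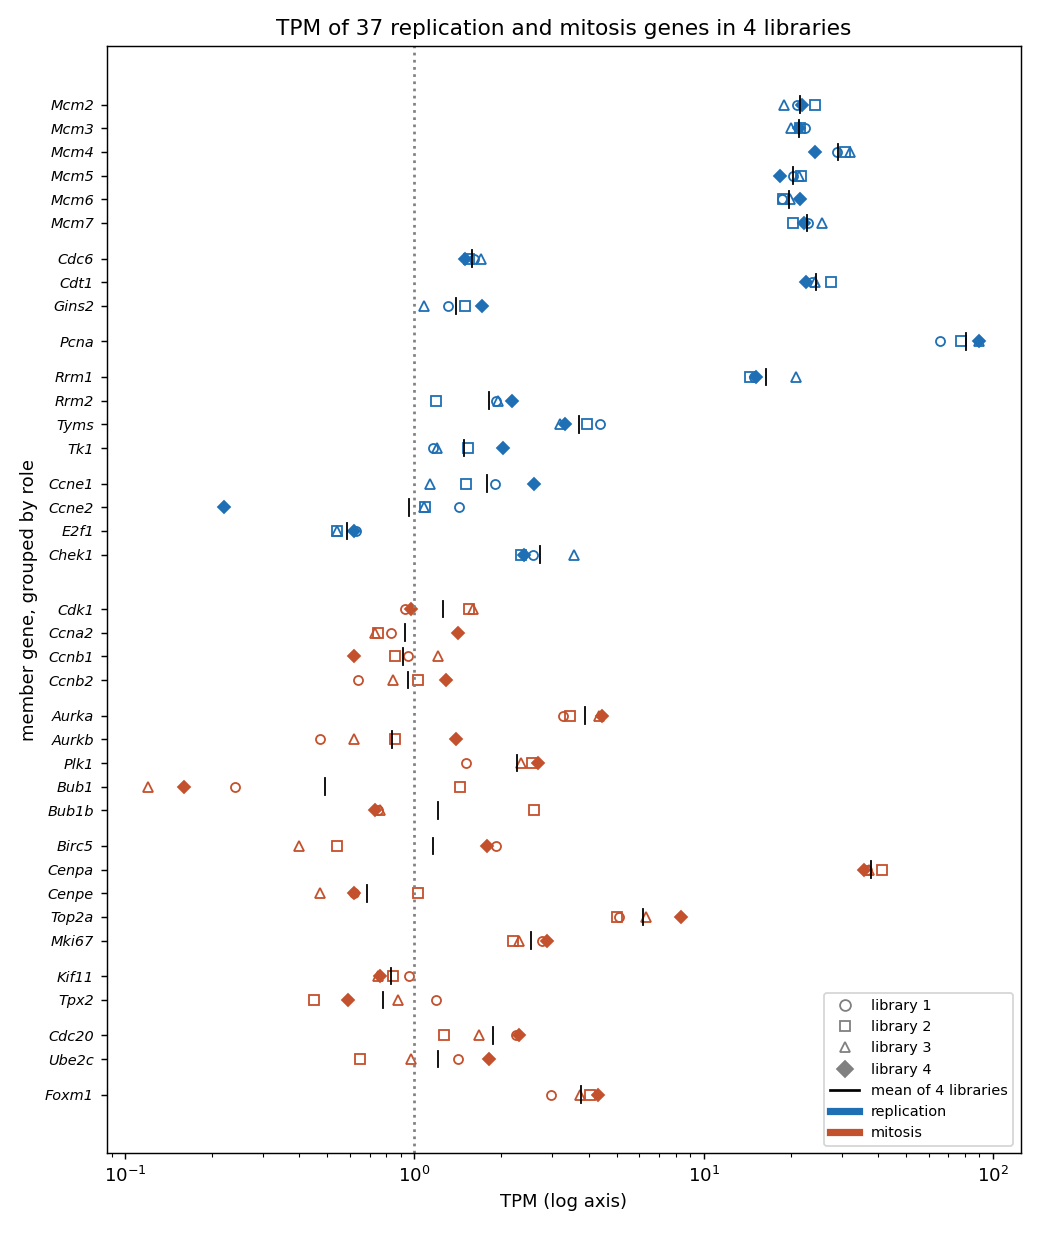
TPM (x axis, log scale) of each member in each of the 4 libraries, with the mean as a black bar and the members grouped by role. The MCM genes, Cdt1, Pcna and Rrm1 stand between 14.5 and 89.6 TPM, most other members near the dotted line at 1 TPM, and Cenpa alone among mitosis genes above 10 TPM.

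The subunits of the MCM2-7 helicase, which unwinds DNA at the fork, had similar levels. Mcm4 was the highest, with 28.9, 30.9, 32.2 and 24.3 TPM in libraries 1 to 4, and lies on chromosome 16 between 15623897 and 15637400 in mm10. Its library 4 value was the lowest, below the range of the other libraries. Mcm2 had 20.99, 24.3, 18.9 and 22.0 TPM and Mcm7 had 22.9, 20.4, 25.7 and 22.3 TPM. Mcm3 stood at 22.4, 21.5, 20.0 and 21.4 TPM, Mcm5 at 20.3, 21.7, 21.4 and 18.3 TPM and Mcm6 at 18.7, 18.8, 20.0 and 21.6 TPM. Within a library the highest subunit exceeded the lowest by 1.55, 1.64, 1.70 and 1.32 times, and Mcm4 was the highest in each of the 4. Its range overlapped with those of Mcm2 and Mcm7, and the ranges of the other subunits overlapped with each other. The products assemble in equal numbers in the ring. Mcm6 lay below Mcm4 in 4 of 4 libraries, with a log2 ratio of -0.55 ± 0.26 (SD, n = 4), and its library 4 value of -0.17 was the smallest. Mcm2 and Mcm5 did not differ beyond their spread, at 0.07 ± 0.19 and with Mcm2 higher in 3 of 4 libraries.

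Around the helicase, licensing factors were uneven. Cdt1, the loader that geminin inhibits, had 23.6, 27.7, 24.3 and 22.5 TPM, close to the MCM genes. Cdc6, the ATPase that loads the helicase beside it, had 1.61, 1.54, 1.70 and 1.5 TPM, so all 4 values lay far below those of Cdt1. The log2 ratio of Cdc6 to Cdt1 was -3.86 ± 0.15 (SD, n = 4), with the same direction in 4 of 4 libraries. Gins2, a subunit of the GINS complex that activates the helicase, had 1.40 ± 0.27 TPM. Cdc6 and Cdt1 both carry E2F letters in their windows. Of the replication genes with a window, 5 of 8 at a mean of 10 TPM or more and 1 of 7 below it, Cdc6, held such letters. The abundant genes with no E2F match in their windows were Pcna, Rrm1 and Mcm2. These counts were not tested. In the second quantification Tyms, with no E2F match in its window, had 15.3 TPM and would join the abundant genes.

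Pcna, the sliding clamp of the replicative polymerases, was the highest member, with 65.8, 77.7, 89.6 and 89.4 TPM in libraries 1 to 4. Library 1 was the lowest and libraries 3 and 4 the highest. It lies on chromosome 2 between 132249162 and 132253314 and ranked at the 97.1st percentile of protein-coding genes by mean TPM. The processed copy Pcna-ps2 was listed at 3.09, 6.33, 6.00 and 2.79 TPM. Reads of near-identical copies can be moved between them, so the Pcna level is uncertain by an amount that was not measured. The log2 ratio of Pcna to Mcm2 was 1.89 ± 0.29, with Pcna higher in all 4.

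Of the genes that supply nucleotides, Rrm1 was high and its partner low. Rrm1, the large subunit of ribonucleotide reductase, had 14.9, 14.5, 20.9 and 15.2 TPM, with library 3 apart from the rest. Rrm2, the small subunit that proliferating cells make in S phase, had 1.91, 1.19, 1.95 and 2.17 TPM. The ranges did not overlap, and the log2 ratio was 3.13 ± 0.36 (SD, n = 4), or 1.94 ± 0.36 on protein-coding transcripts. Tyms, which makes thymidylate, had 3.71 ± 0.56 TPM and Tk1, the thymidine kinase of S phase, 1.48 ± 0.40 TPM. Rrm2b, the small subunit used outside S phase, which is no member and was picked after its values were seen, had 7.93, 9.11, 7.79 and 10.8 TPM, above Rrm2 in every library.

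Regulators of S phase entry were low throughout. Chek1, the kinase that guards stalled forks, had 2.72 ± 0.58 TPM, and Ccne1, cyclin E1, had 1.90, 1.51, 1.13 and 2.59 TPM. Ccne2, cyclin E2, had 1.43, 1.09, 1.08 and 0.22 TPM, with library 4 well below the others, where it had 9 counts against 30 to 32. E2f1, an activator of S phase genes, was the lowest replication member, at 0.63, 0.54, 0.54 and 0.62 TPM. Cyclin E1 exceeded cyclin E2 in 4 of 4 libraries, but the log2 ratio was between 0.06 and 0.44 in libraries 1 to 3 and 3.07 in library 4.

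Most mitosis genes were near 1 TPM. The kinase Cdk1, which drives entry into mitosis, had 0.93, 1.55, 1.59 and 0.97 TPM, and its partner cyclins Ccna2, Ccnb1 and Ccnb2 had 0.93 ± 0.32, 0.91 ± 0.24 and 0.95 ± 0.28 TPM (SD, n = 4 each). These 4 genes rested on 14 to 34 counts in a library. Over all transcripts Cdk1 exceeded Ccna2 in 3 of 4 libraries and Ccnb1 exceeded Ccnb2 in 2 of 4, so neither pair had 1 direction. On protein-coding transcripts Ccnb1 lay below Ccnb2 in 4 of 4 libraries, with a log2 ratio of -1.21 ± 0.37.

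Aurka, a kinase of the spindle poles, had 3.26, 3.44, 4.36 and 4.46 TPM and was the highest mitotic kinase over all transcripts. On protein-coding transcripts it had 1.52 ± 0.12 TPM, below Plk1 at 2.18 ± 0.54 TPM. Aurkb, its relative in the chromosome passenger complex, had 0.47, 0.86, 0.62 and 1.39 TPM, below Aurka in 4 of 4 libraries with a log2 ratio of 2.17 ± 0.50 for Aurka over Aurkb. The second deposited quantification of the same libraries did not keep this gap, with a log2 ratio of 0.17 ± 0.45 and no single direction. Plk1, a kinase of mitotic entry and of the spindle, had 2.27 ± 0.53 TPM. The checkpoint kinase Bub1 had 0.24, 1.44, 0.12 and 0.16 TPM, and Bub1b, which encodes BUBR1 of the mitotic checkpoint complex, had 0.75, 2.59, 0.76 and 0.73 TPM. Both were highest in library 2 by TPM, yet Bub1b had 35, 41, 44 and 38 counts in the 4 libraries. In library 2, 2.10 TPM of Bub1b lay on Bub1b-203, a retained-intron transcript of 385 bases, which held 10.6 estimated counts there and 0 in the other libraries, while the protein-coding Bub1b-201 had 0.57, 0.48, 0.74 and 0.73 TPM.

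Chromosome and spindle genes covered the widest range. Mki67, the coat protein of mitotic chromosomes known as the Ki-67 proliferation antigen, had 2.77, 2.20, 2.30 and 2.88 TPM and lies on chromosome 7 between 135689784 and 135716361. Its transcript of 10061 bases gave 382 to 452 counts, so its level was among the better measured. Top2a, the topoisomerase that untangles sister chromatids, had 5.09, 5.02, 6.34 and 8.34 TPM, with the highest value in library 4. Birc5, survivin of the passenger complex, had 1.92, 0.54, 0.40 and 1.78 TPM, so libraries 1 and 4 lay well above libraries 2 and 3. Cenpe, a kinesin at the kinetochore, had 0.69 ± 0.24 TPM, and the spindle proteins Kif11 and Tpx2 had 0.83 ± 0.10 and 0.78 ± 0.33 TPM. Cdc20, an activator of the anaphase-promoting complex, had 2.24, 1.27, 1.67 and 2.30 TPM, and Ube2c, the ubiquitin-conjugating enzyme of that complex, had 1.41, 0.65, 0.97 and 1.81 TPM. Both were highest in library 4 and lowest in library 2, and Cdc20 was the higher in 4 of 4 libraries, with a log2 ratio of 0.64 ± 0.23. In the second quantification the ratio was 0.20 ± 0.59, without 1 direction. Foxm1, the transcription factor of mitotic genes, had 3.77 ± 0.58 TPM (SD, n = 4 for each mean).

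Cenpa, the histone H3 variant of centromeres on chromosome 5 between 30666777 and 30674830, seemed to be the exception, with 36.7, 41.3, 37.5 and 35.9 TPM. Only 9.0% ± 3.4 of this level (SD, n = 4) lay on protein-coding transcripts. The single-exon retained-intron transcript Cenpa-208 held 12.6 TPM, Cenpa-203 11.5 TPM and Cenpa-207 8.30 TPM on average, all annotated as retained introns. The main protein-coding transcript, Cenpa-205, had 4.51, 3.18, 3.10 and 2.17 TPM. Over protein-coding transcripts Cenpa had 3.39 ± 1.24 TPM, by mean still above Mki67 at 2.54 ± 0.34 and Plk1 at 2.18 ± 0.54 TPM. In library 4 it had 2.17 TPM, below Mki67 at 2.88 and Plk1 at 2.68 TPM.

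Transcripts without a complete coding sequence took part of the level of other members too, as total RNA can include unspliced and partly spliced RNA. Over protein-coding transcripts alone the median was 4.03 TPM for replication genes and 0.95 TPM for mitosis genes, and the lists differed by 1.48 ± 0.08 on the log2 scale. Of the replication genes 12, and of the mitosis genes 7, then had at least 1 TPM in every library. Mcm4 and Mki67 had all of their level on protein-coding transcripts, Mcm6 had 89.3% ± 2.6 and Pcna 65.9% ± 5.0. Rrm1 had 39.6% ± 8.5 and Cdt1 53.3% ± 5.6. Several members share their strand with another gene model over part of their length, among them Cdt1 with Gm20388, Rrm1 with Gm45399 and Foxm1 with Gm44596, where reads can be split. In 9 of 37 members the protein-coding transcripts held less than 50% of TPM. Among the MCM genes the highest exceeded the lowest by 1.98 to 2.56 times in a library when only protein-coding transcripts were counted, with Mcm4 at 29.1 ± 3.5 TPM and Mcm5 at 12.8 ± 0.8 TPM. Top2a had 6.20 ± 1.55 TPM over all transcripts, above Mki67 in 4 of 4 libraries with a log2 ratio of 1.23 ± 0.29. Its protein-coding transcript had 2.16 ± 0.28 TPM, below Mki67 in 4 of 4 libraries with a log2 ratio of -0.22 ± 0.11, so the order of the pair turned with the transcripts counted.

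**Figure D3:**
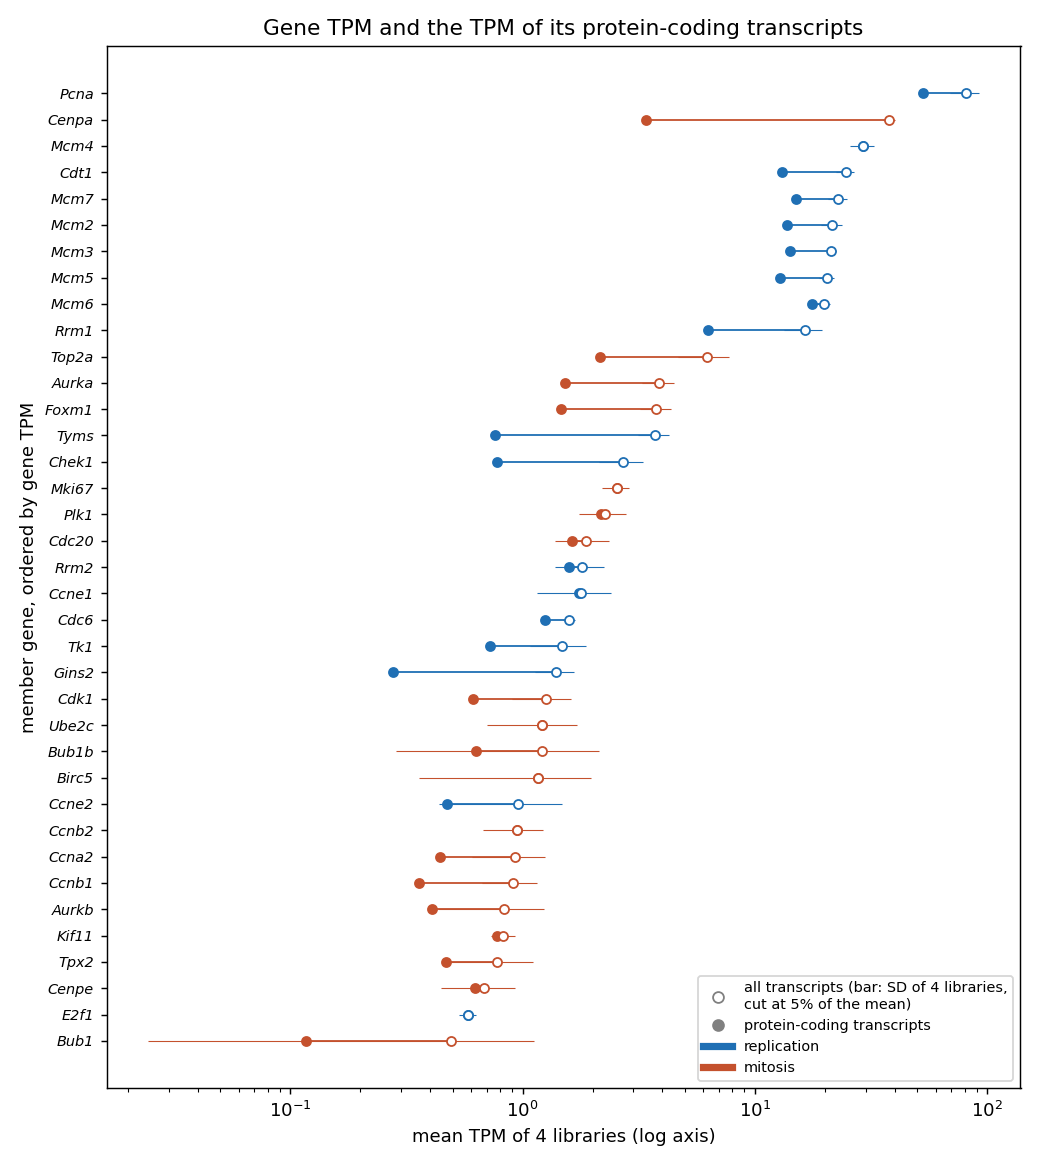
Mean TPM of 4 libraries (x axis, log scale) over all transcripts of each member (open points, with the SD as a thin bar) and over its protein-coding transcripts (filled points). The widest gap is that of Cenpa, from 37.8 to 3.39 TPM, and Mcm4, Mki67 and Ccnb2 are among those with no gap.

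The 12 ratios between members that share a complex or a step had 1 direction in all 4 libraries for 9 pairs, and for 6 pairs in the second quantification. For each of these 9 the exact two-sided sign-flip permutation test gave p = 0.13, the smallest p that 4 libraries allow, and 0.167 after Benjamini-Hochberg adjustment over the 12 pairs, so none could pass 0.05. Besides those given above, they include Bub1 below Bub1b, at -1.44 ± 0.50 on the log2 scale. The pairs without 1 direction were Mcm2 and Mcm5, Ccnb1 and Ccnb2, and Cdk1 and Ccna2.

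No member passed the test for variation between libraries beyond that of genes of similar abundance. The goodness-of-fit test of edgeR was run on counts with Benjamini-Hochberg adjustment over 13118 genes, and 0 of 34 members tested passed an adjusted p of 0.05, beside 1.40% of all genes tested. Ccne2, Bub1 and Ube2c had too few counts to be tested. At an unadjusted p under 0.05 there was 1 member, Mcm4, beside 4.60% of all genes, and the count of members passing was also 0 with the dispersion trend and size factors of DESeq2. Mcm4 had 1608, 1825, 1808 and 1211 counts, a deviation of -0.29 on the log2 scale in library 4, an unadjusted p of 0.00647 and an adjusted p of 0.289 in edgeR's test. The next member was Pcna, with an unadjusted p of 0.0640 and a deviation of -0.21 in library 1. Fewer than 50 counts on average were found for 16 members, 11 of them mitosis genes. These include the untested Ccne2, Bub1 and Ube2c, and low counts limit the test for the rest. The median coefficient of variation of CPM, a gene's counts per 1000000 counts, was 8.43% for replication and 17.3% for mitosis genes, and counting error alone gives a median of 7.0% and 15.9%.

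The mitosis members leaned to higher counts in library 4. Of 17 mitosis genes tested, 14 lay above their own mean of log2 CPM in library 4, all but Cdk1, Cenpa and Kif11, beside 51.0% of all genes tested. In libraries 1 to 3 the counts were 7, 6 and 3 of 17, beside 50.4%, 50% and 50.5% of all genes. The median deviation of the mitosis genes in library 4 was 0.18 on the log2 scale, and that of the 17 replication genes was -0.01, with 8 of them above the mean and 9, 11 and 7 in libraries 1 to 3. Of 50 further mitosis genes tested, from the pathway lists below, 28 lay above their mean in library 4, with a median deviation of 0.03. Summed over the 18 mitosis genes other than Cenpa, CPM were 84.9, 77.0, 76.3 and 93.8 in libraries 1 to 4, so library 4 was the highest and library 1 the next. With Cenpa the sums were 156.0, 157.9, 149.2 and 162.8, so library 4 was the highest by less and library 2 the next. No single gene among them passed the test, and the lean of the list was not tested.

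**Figure D4:**
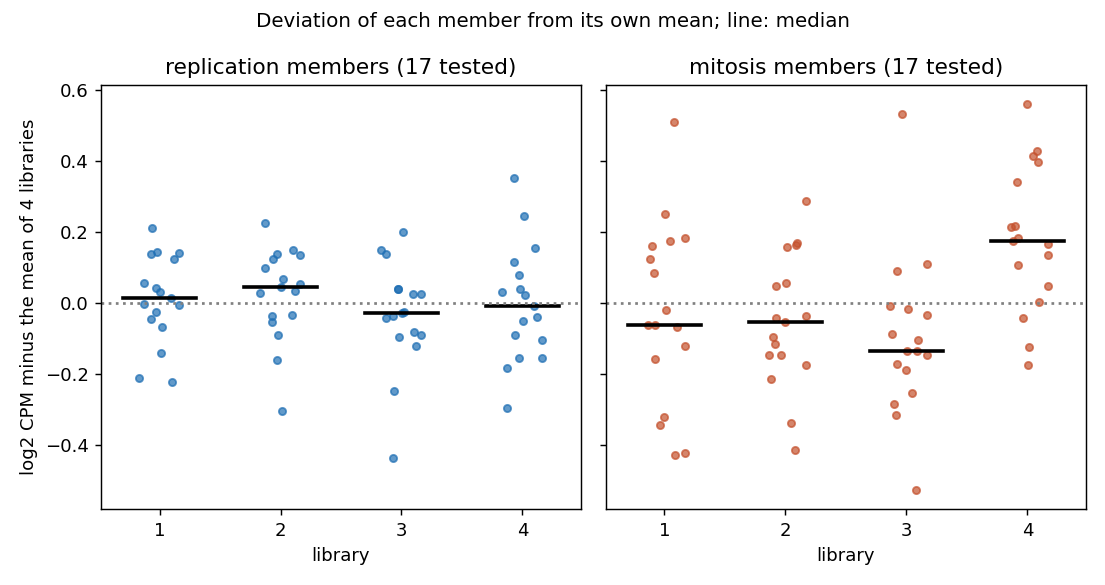
Deviation of each tested member from its own mean (y axis, log2 CPM) in each library (x axis), replication genes on the left and mitosis genes on the right, with the median as a black bar. The mitosis median stands at 0.18 in library 4 and at -0.13 in library 3, and the replication medians stay within 0.05 of 0.

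Markers of B cells and erythroid cells summed highest in library 4, and those of neutrophils in library 2. The 10 T cell markers, led by Trac at 501 ± 21.6 TPM, summed to between 1976 and 2072 TPM in the 4 libraries, and none of them passed the test. All 10 B cell markers were highest in library 4, where they summed to 86.3 TPM against 6.60 to 10.4 TPM in the others. Among those that passed the test were Cd79a, Cd79b, Pax5, Cd22, Blk and Cr2, and Cd22 was the highest. The 11 erythroid genes summed to 656 TPM in library 4 against 34.4 to 86.0 TPM, with Hba-a1, Hba-a2 and Hbb-bs passing and Hba-a1 the highest, while the precursor genes Klf1, Epor and Slc4a1 stayed at or below 0.50 TPM in every library. Alas2, the heme synthesis enzyme of erythroid cells, had 2.90 TPM in library 4 against 0.07 to 0.54 TPM. Germinal centre B cells and plasma cells, 9 genes led by Irf4, summed to 17.8 TPM in library 4 against 6.82 to 10.2 TPM, with Tnfrsf17 at 0 in all 4 libraries. Of the plasma cell genes, Jchain had 1.85 TPM in library 4 against 0.19 to 0.37 TPM, Mzb1 2.94 against 0.53 to 0.73 TPM and Sdc1 0.83 against 0.08 to 0.25 TPM. In library 2 the 10 neutrophil genes summed to 35.8 TPM against 10.8 to 13.0 TPM. Of 4 tested, S100a8, S100a9 and Ngp passed, and S100a9 was the highest. Ltf, Camp and Mpo were also highest in library 2, but Ly6g was lowest there, at 0.07 against 0.25 to 0.57 TPM. Mmp9 was highest in library 1, and Elane and Prtn3 in library 4, so the list did not move as a whole. No tested gene passed among the macrophage markers (6 of 7 tested, led by Lyz2, summed 24.6 to 28.5 TPM). The same held for the thymocyte markers (2 of 5 tested, led by Cd1d1, 11.6 to 15.6 TPM, with Rag1 and Rag2 at 0). It also held for the stem and progenitor markers (2 of 5 tested, led by Kit, 2.22 to 3.77 TPM, with Mecom at 0). Of the natural killer markers (led by Eomes, 15.7 to 21.9 TPM) 3 of 5 were tested and none passed. The untested genes of these lists had too few counts and could not pass. The part of any of these cells in the mitosis counts was not tested.

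Other genes of the same pathways placed the members among their partners. In the 46 further replication genes, 41 had at least 1 TPM in every library and the median was 9.21 TPM, close to the 10.04 TPM of the members. In the 52 further mitosis genes, 39 had at least 1 TPM and the median was 12.9 TPM, above the 1.21 TPM of the members. By median the further genes thus had the opposite order to the members. By mean log2(TPM + 1) they were close, at 3.32 for replication and 3.25 for mitosis. Of the 46 replication and 50 mitosis genes tested, none passed the goodness-of-fit test at an adjusted p of 0.05. Over all genes tested 1.40% did. At an unadjusted p under 0.05 there were 0 and 1 genes, the latter being Racgap1, beside 4.60% of all genes tested.

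Among replication genes, each list had members at the level of the MCM genes and a few near or below 1 TPM. The origin recognition complex, on which the helicase is loaded, had Orc3 at 34.0 ± 2.6 and Orc4 at 26.9 ± 1.6 TPM and Orc1 at 0.80 ± 0.13 TPM, with 5 of 6 genes at 1 TPM or more. On protein-coding transcripts Orc3 had 7.56 ± 1.18 and Orc4 11.4 ± 2.0 TPM. Helicase activation factors had 6 of 8, from Dbf4, the partner of the CDC7 kinase, at 24.8 ± 0.7 and Gins4 at 8.26 ± 0.55 down to Mcm10 at 0.61 ± 0.14 TPM. All 12 polymerase and primase genes had at least 1 TPM, led by Pola2 at 24.98 ± 1.63 and Pole4 at 22.8 ± 0.9 TPM, with Pole, the catalytic subunit of the leading strand enzyme, lowest at 2.64 ± 0.17 TPM. All 5 clamp loader genes did so, with Rfc2 at 23.2 ± 2.3, Rfc1 at 16.9 ± 1.4 and Rfc4 at 4.22 ± 0.90 TPM. On protein-coding transcripts Rfc2 had 1.06 ± 0.21 TPM, and 3 of 5 clamp loader genes had at least 1 TPM in every library. Single-strand binding and lagging-strand genes had 5 of 6, with Rpa1 at 51.02 ± 1.45, Rpa2 at 21.3 ± 1.0 and Dna2 at 0.56 ± 0.22 TPM. Nucleotide metabolism genes had 8 of 9, with Samhd1, which degrades deoxynucleotides, at 124.0 ± 3.1 and Dtymk at 25.01 ± 2.42 TPM (SD, n = 4 throughout).

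Among mitosis genes, the complexes differed. All 8 cohesin genes, which hold sister chromatids together and also fold interphase chromatin, had at least 10 TPM, from Pds5a at 81.3 ± 5.6 and Stag2 at 46.7 ± 1.6 to Pds5b at 18.9 ± 2.0 TPM. All 12 genes of the anaphase-promoting complex had at least 1 TPM, with Anapc5 at 90.5 ± 4.0, Anapc1 at 47.1 ± 3.8 and Anapc10 at 2.80 ± 0.92 TPM. Its partners in mitosis, Cdc20 and Ube2c, had 1.87 ± 0.49 and 1.21 ± 0.51 TPM. Condensin ranged from Smc4 at 121.0 ± 6.7 and Ncaph2 at 39.8 ± 6.4 to Ncapg at 0.45 ± 0.17 TPM, with 7 of 8 genes at 1 TPM or more. Kinetochore genes had 4 of 9, with a median of 1.29 TPM, led by Zwint at 53.9 ± 3.8 and Ndc80 at 7.25 ± 0.66 and ending with Cenpf at 0.32 ± 0.06 TPM. Spindle checkpoint genes had 4 of 5, with Bub3 at 18.6 ± 1.3, Zw10 at 14.8 ± 1.2 and Ttk at 0.30 ± 0.17 TPM. Kinesin and cytokinesis genes had 4 of 10, with a median of 1.10 TPM, Racgap1 at 13.5 ± 2.6, Kif23 at 11.5 ± 1.7 and Kif4 at 0.29 ± 0.07 TPM. On protein-coding transcripts Racgap1 had 11.7 ± 2.3, Kif23 1.35 ± 0.17, Smc4 33.5 ± 1.8 and Zwint 18.3 ± 1.3 TPM. Kinesins, cytokinesis and kinetochore genes were the lists nearest to the mitosis members.

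In the RB, E2F and DREAM list the highest genes were Rbl2 and E2f4. Rbl2, the p130 pocket protein of the DREAM complex in resting cells, had 33.4, 34.9, 37.02 and 39.7 TPM, and E2f4, its E2F partner, had 29.2, 35.8, 33.8 and 33.8 TPM. Both stood above E2f1, at 0.58 ± 0.05 TPM, and Foxm1 in every library. E2f8, a late repressor of the family, was the lowest of the 17 genes of this list at 0.40 ± 0.17 TPM, and 14 of 17 had at least 1 TPM in every library. None of the 17 passed the test of variation between libraries in edgeR, at an adjusted or an unadjusted p of 0.05. Over all genes tested 1.40% passed at the adjusted and 4.60% at the unadjusted threshold.

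**Figure D5:**
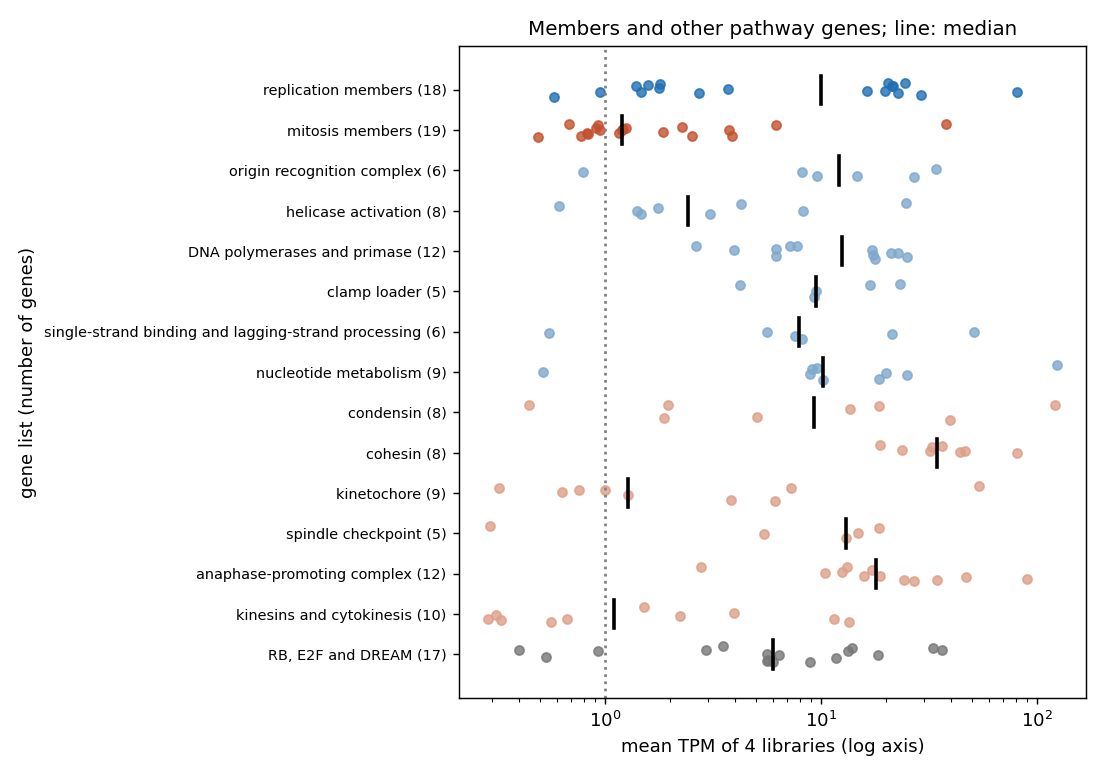
Mean TPM of 4 libraries (x axis, log scale) of each member and of each further pathway gene, by list, with the median as a black bar and the number of genes in brackets. The replication members split into sets above 16 and below 4 TPM, and cohesin and the anaphase-promoting complex lie to the right of the mitosis members.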

How the data were processed

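The 4 libraries of splenic T cell RNA form 1 group, made with a stranded kit per the labels' protocols. Values refer to mm10 and GENCODE M21 per the text deposited with each library. Which aligner and quantifiers were run is not stated in the sources used. The deposited expected counts are unnormalized estimates per gene or transcript. The deposited TPM values divide them by effective length and a fixed total that includes spike-ins and non-coding RNA. The FPKM values, deposited by the authors beside them, use length and counted reads and served as an alternative, per the file headers. Each transcript's percent of its gene's TPM, as deposited by the authors, entered no result, since shares were computed here from transcript TPM. The bounds of an interval for each TPM, which the authors deposited as signal on the TPM scale, have no stated level and were not printed. The deposited second transcript table (TPM and estimated counts) was summed per gene as an alternative. Reads were counted against the C57BL/6 reference build, so CAST/EiJ variants may lose reads.

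Totals were 15818334, 17335895, 16439475 and 14584388 counts in libraries 1 to 4. In these libraries 3 counts equal 0.190, 0.174, 0.183 and 0.206 CPM, a floor that covers counting error only. Spike-ins (0.299% to 0.347% of counts) and 26248 numeric identifiers that name no gene (at most 8.75e-05% of counts) stayed out of tests. No 2 libraries matched within counting noise (chi-square per degree of freedom 4.59 to 11.3).

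List levels are means of log2(TPM + 1). Ratios use log2 of TPM + 0.1 and are tested by exact permutation of signs (two-sided). Variation was tested on rounded expected counts with edgeR 4.0.16 in R 4.3.3 (intercept only, TMM, trended dispersion, filterByExpr, goodness-of-fit test, Benjamini-Hochberg at 0.05). On simulated counts for this test over 12901 genes, 58.3% of 96 genes changed 2-fold, 95.8% of 95 genes changed 4-fold and 1 of 12710 unchanged genes were called. Protein-coding TPM sums transcripts of that biotype. Promoter windows came from the RefSeq table of GRCm38.p6. Mcm4, Gins2, Ccne2, Ccna2, Aurkb, Tpx2 and Foxm1 had no entry. Python 3.11.15, scipy 1.17.1 and DESeq2 1.42.0 (alternative size factors and dispersion) were used.

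Named were all members, the 2 highest genes and the lowest gene of each pathway list, the highest gene of each marker list, and list genes that passed the test. Defining markers at or near 0, the other neutrophil genes, Alas2, Jchain, Mzb1, Sdc1, Rrm2b and Kif2c were named outside this rule. Some list genes that the rule covers are not reported here, but counts and sums include them. The lists were 13 pathway lists and 9 lists of cell type markers (T cell, B cell, germinal centre B and plasma cell, erythroid, neutrophil, monocyte and macrophage, thymocyte, stem and progenitor, natural killer). Members and lists were chosen with earlier results of these data known. Alternatives were other pseudocounts, thresholds, scalings and filters, the second quantification, each library left out, and, chosen after seeing the data, protein-coding transcripts alone, the list without Cenpa, and promoters before the start alone.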

Additional observations from a re-analysis of the deposited data

Results flagged for a closer look

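In 8 of 89 sets of 4 values checked, 1 library stood far from the other three by Dixon's criterion, which chance meets in about 1 of 20 sets. Of these, 5 concern library 4. Mcm6 had 60.8 CPM there against 52.3 to 53.7 CPM in the others, and the log2 ratio of Mcm6 to Mcm4 was -0.17 there against -0.71 to -0.63. Ccne2 was lowest in library 4, at 0.619 CPM against 1.79 to 2.03 CPM, and the log2 ratio of Ccne1 to Ccne2 was 3.07 there against 0.06 to 0.44. Ccna2 had 1.41 TPM in library 4 against 0.73 to 0.83 TPM, on 34 counts there and 26 to 34 in the others. Rrm1 had 20.92 TPM in library 3 against 14.5 to 15.2 TPM, although its counts were 627, 669, 671 and 593 in libraries 1 to 4. Bub1 had 1.44 TPM in library 2 against 0.12 to 0.24 TPM, and Bub1b 2.59 TPM there against 0.73 to 0.76 TPM. The counts behind Bub1 were 13, 20, 4 and 7. The part of library 4's B cell and erythroid RNA in these values was not tested. Nor was the part of whatever raised library 2's neutrophil marker sum.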

How the results depend on the processing

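The list level of the replication members stayed above that of the mitosis members under every alternative. The difference of 1.54 on the log2 scale became 1.94 with a pseudocount of 0.1, 2.02 as a median over members, 1.79 with TPM rescaled to protein-coding genes, 1.68 in the second quantification, 1.35 without Pcna and 1.75 without Cenpa, and was 1.52 to 1.58 with 1 library left out. The 7 mitosis genes at 1 TPM or more in every library became 14 at 0.5 TPM, 13 in the second quantification and 18 after rescaling, where the 16 replication genes became 17, 17 and 17. The 183 genes varying between libraries became 279 with no filter and 116 to 146 with 1 library left out, the fewest without library 4. Beside 1.40% of all genes tested in the main fit, the count of members among them was 0 under every alternative. The lowest adjusted p of a member in edgeR's test ranged from 0.220 to 0.676 over these. Without library 4, Mcm4 was no longer at an unadjusted p under 0.05 in edgeR's test and Pcna was (unadjusted p = 0.00921), and Pcna also was without library 2. Pairs with 1 direction numbered 9, or 6 in the second quantification and 10 with protein-coding transcripts alone. Some ratios changed direction. In the second quantification the log2 ratio of Ccne1 to Ccne2 was -0.086 and that of Mcm2 to Mcm5 -0.12, and with protein-coding transcripts alone that of Top2a to Mki67 was -0.22. With 1 library left out, the ratio of Ccnb1 to Ccnb2 ranged from -0.24 to 0.25, turning positive without library 2 or library 4. The cause was not tested. With the bases before the start alone, E2F letters were found for 4 of 15 replication and 1 of 15 mitosis genes, and CHR letters for 2 and 8, beside 1.86% and 17.1% of all windows. The E2F letters of Mcm7 and Cdc6 counted there lie inside the gene models used for the levels. No paired analysis was possible because there is 1 group. Depth limits the 16 members with fewer than 50 counts on average.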

Other observations

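The second quantification of the same libraries gave higher TPM for 37 of 37 members, by a median of 1.43 times, beside 1.32 times over 10154 protein-coding genes with at least 1 TPM. Of the 37 members, 9 stood outside the range between the 5th and 95th percentiles of those genes, 1.03 to 1.89 times. Tyms had 3.71 ± 0.56 TPM in the first and 15.3 ± 1.3 TPM in the second quantification (SD, n = 4 each), and on protein-coding transcripts 0.76 ± 0.58 and 10.4 ± 1.9 TPM. Aurkb had 0.83 ± 0.40 and 4.68 ± 1.82 TPM, of which the retained-intron transcript Aurkb-208 held 0.18 and 3.46 TPM, while Aurka had 3.88 ± 0.62 and 5.09 ± 0.93 TPM. Ccne2 had 0.95 ± 0.52 and 3.10 ± 1.25 TPM, and Foxm1 3.77 and 7.98 TPM. Pcna had 80.6 ± 11.3 and 112.0 ± 13.9 TPM, and the MCM genes differed from each other by 1.62 to 2.17 times within a library in the second. The mitotic kinesin Kif2c, no member, showed the same kind of gap, with 0.31 ± 0.08 and 4.68 ± 1.72 TPM. Cenpa lay mostly outside protein-coding transcripts in the second too, with 5.39 ± 1.18 of 47.5 ± 2.5 TPM on them. The cause of these gaps was not tested.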
